A study of Mus musculus with 8 samples.

Results

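The matrix metalloproteinases (MMPs) and their inhibitors, the tissue inhibitors of metalloproteinases (TIMPs), were taken by gene symbol from the gene-level RNA-seq table of mouse peritoneal macrophages. The 10 members were the metalloproteinase genes Mmp2, Mmp8, Mmp9, Mmp12, Mmp13, Mmp14 and Mmp19 and the inhibitor genes Timp1, Timp2 and Timp3, out of 55801 genes in the table. Each symbol stood on a single row, and all 10 members were among the 12189 genes that passed the filter on low values, a mean TPM (a read count scaled for gene length and for the total of the sample) of at least 1.

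The cells came from male C57BL/6 mice of 6 to 8 weeks whose peritoneum had been primed with thioglycollate for 72 h. Vehicle (DMSO) or the small molecule C498, at 15 µM, was added 0.5 h before lipopolysaccharide (LPS), a component of the bacterial outer membrane, which was given at 100 ng/ml for 4 h. With 2 samples each and 8 in all, the 4 groups were vehicle alone (NC), LPS alone, C498 alone and the combination (C498+LPS). The labels do not say whether the 2 samples of a group came from separate mice, so the p-values measure only the spread between these samples, which may be technical. C498 was selected in the study as an inhibitor of both JAK/STAT and NF-kB signalling, and each group was treated at a single dose and time.

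MMPs are zinc-dependent endopeptidases that are made as inactive precursors and cleave collagen, elastin and other parts of the extracellular matrix, as well as cytokines and receptors. TIMPs bind the active site of the mature enzymes and block it. Macrophages make several of these enzymes, among them the macrophage elastase MMP12, and in inflamed tissue they are known for both breaking down and remodelling matrix. RNA levels do not show how much of an enzyme was secreted, activated or inhibited.

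In these cells LPS raised the RNA of the collagenase Mmp13 and the gelatinase Mmp2 and lowered that of Mmp19. C498 raised Mmp19, Timp1 and Timp3, both alone and under LPS, by between 3.15-fold and 4.0-fold in mean TPM. The Mmp2 and Timp3 changes no longer met the thresholds in some fits that left out a sample. The summed level of fibroblast markers was also higher in the samples with C498, and the part of fibroblasts in these changes was not tested. Mmp12 and Mmp14 were the most abundant metalloproteinase RNAs in every sample, and neither passed the test of a change of at least 2-fold in any comparison. The summed TIMP level per 100 of summed MMP level was 12 and 19.8 in the NC samples and 32.6 and 51.6 in the C498+LPS samples.

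**Figure D1:**
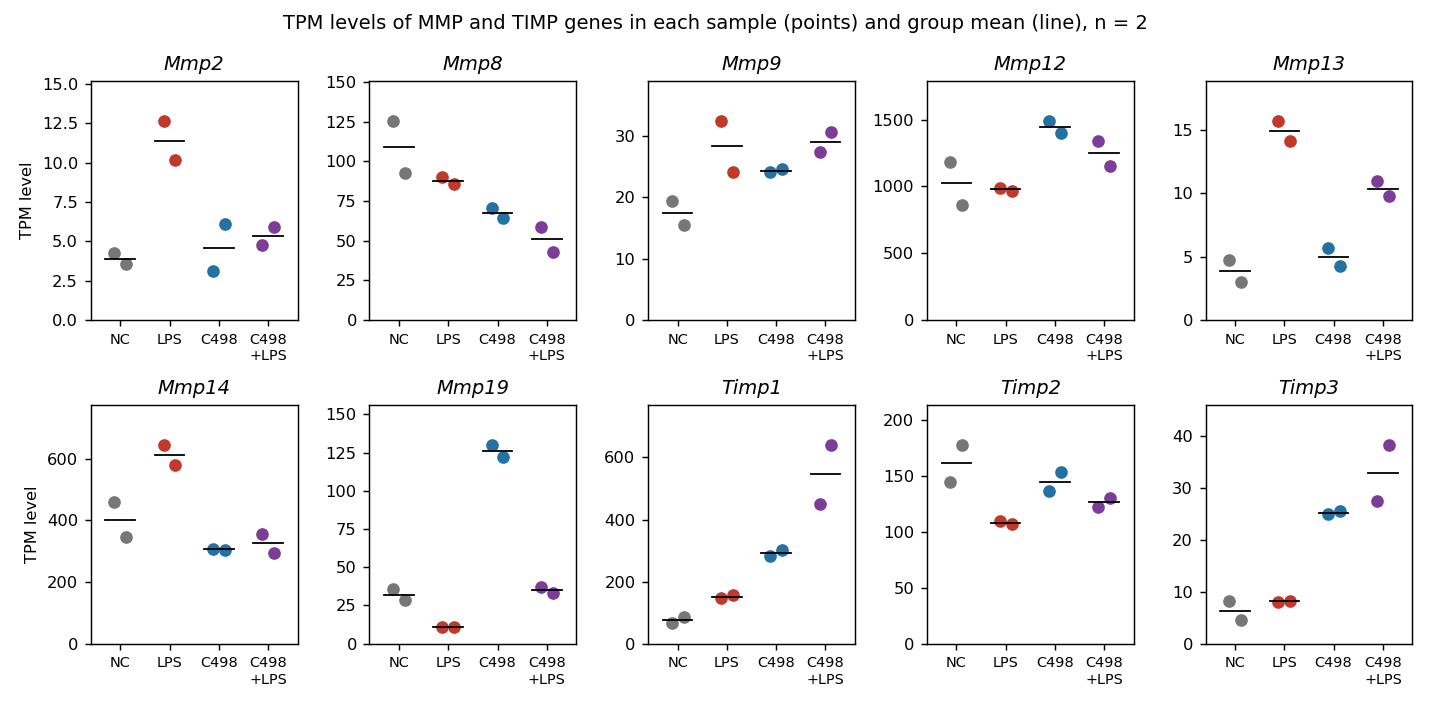
TPM level (vertical axis, linear, from 0, with its own scale for each gene) of the 10 MMP and TIMP genes in the 4 groups (horizontal axis), with a point for each of the 2 samples and a line at the group mean. Mmp19 runs from 10.97 in LPS to 130.2 in C498, and Timp1 from 67.95 in NC to 641.66 in C498+LPS.

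Mmp13, Mmp12 and Mmp8 lie on the same strand in one stretch of chromosome 9. In GRCm38 with the GENCODE M21 annotation, Mmp13 spans chr9:7272514-7283331, Mmp12 chr9:7344381-7369499 and Mmp8 chr9:7558456-7568485, all on the plus strand. Timp1 lies at chrX:20870166-20874735 and Timp3 at chr10:86300372-86349506, also on the plus strand, each inside a synapsin gene transcribed from the other strand. Mmp19 occupies chr10:128790910-128800824 on the plus strand. The promoters of these neighbours and of the TIMPs that changed are shown because Mmp13 was called in LPS vs NC while its neighbours Mmp12 and Mmp8 were not, and because both inhibitor genes were called with C498. Each is the 120 bases just before an annotated start in RefSeq (GRCm38.p6), read 5′ to 3′ on the gene's strand, with any match to an AP-1 motif (TGANTCA) in capitals.
Mmp13, chr9:7272394-7272513: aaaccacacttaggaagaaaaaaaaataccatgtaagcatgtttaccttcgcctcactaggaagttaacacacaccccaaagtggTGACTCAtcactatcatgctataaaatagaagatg
Mmp12, upstream start, chr9:7344277-7344396: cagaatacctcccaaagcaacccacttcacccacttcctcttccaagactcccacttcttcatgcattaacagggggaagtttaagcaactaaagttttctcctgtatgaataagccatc
Mmp12, downstream start, chr9:7347254-7347373: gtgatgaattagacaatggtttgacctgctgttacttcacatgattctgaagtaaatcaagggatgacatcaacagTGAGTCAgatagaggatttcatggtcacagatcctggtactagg
Mmp8, chr9:7558309-7558428: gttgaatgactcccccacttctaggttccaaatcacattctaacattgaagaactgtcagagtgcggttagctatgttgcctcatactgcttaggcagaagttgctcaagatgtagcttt
Timp1, chrX:20870046-20870165: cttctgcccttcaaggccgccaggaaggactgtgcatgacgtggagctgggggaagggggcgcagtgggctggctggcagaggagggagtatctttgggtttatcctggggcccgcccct
Timp3, chr10:86300292-86300411: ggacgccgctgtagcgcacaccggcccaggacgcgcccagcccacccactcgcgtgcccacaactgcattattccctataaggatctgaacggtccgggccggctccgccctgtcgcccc

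The RefSeq table held promoters for 7 of the 10 members, 8 promoters in all, with Mmp2, Mmp9 and Mmp19 not matched. Over the 250 bases before each start, both strands were searched for AP-1 (TGANTCA), CRE (TGACGTCA), NF-kB (GGG, 2 bases of any kind, TTTCC), GAS (TTCNNNGAA) and ISRE (GAAA, 2 bases of any kind, GAAA) letters. The AP-1 letters stood in the Mmp13 promoter, 35 to 29 bases before the start, and at the downstream start of Mmp12, 44 to 38 bases before it. Among the 32851 promoters of the table, 6.75% held the AP-1 letters, 1.55% the CRE, 1.41% the NF-kB, 7.02% the GAS and 2.98% the ISRE letters. The only other match among the members was an ISRE on the minus strand of the Mmp13 promoter, 146 to 137 bases before the start and so outside the stretch shown. A match is a run of letters and was not tested as a binding site.

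Levels were compared on the log2(TPM + 1) scale with limma over all 12189 tested genes, and a gene was called when its fold change was at least 2 and its Benjamini-Hochberg adjusted p over all tested genes at most 0.05. In LPS vs NC, 2 of the 10 members rose and 1 fell, where 5.55% of all tested genes rose and 6.68% fell. In C498 vs NC, 3 members rose and no member fell, against a background of 5.64% rising and 1.36% falling, and 2 members were lower at an unadjusted p under 0.05, as were 14.6% of all tested genes. C498+LPS vs LPS gave the same numbers, 3 rising and none falling, against 5.39% and 2.18% of all tested genes, with 3 members lower at an unadjusted p under 0.05, as were 15.1% of all tested genes. Of the members, 1 fell and none rose between C498+LPS and C498, against 2.52% rising and 3.13% falling, with 2 higher at an unadjusted p under 0.05, as were 7.65% of all tested genes. The balance of rising and falling genes depends on the scaling: centred on the median gene, LPS vs NC gave 853 rising and 530 falling genes in place of 677 and 814, C498 vs NC 565 and 269 in place of 687 and 166, and C498+LPS vs C498 434 and 196 in place of 307 and 381. The median gene of all those tested had a log2 change of -0.17 for LPS vs NC. It was -0.18 for C498+LPS vs C498, so a member with no change in TPM stood slightly above the median gene in those comparisons. The members' own median log2 change was 0.49 for LPS vs NC, 0.39 for C498 vs NC, 0.13 for C498+LPS against LPS and 0.16 for C498+LPS against C498.

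**Figure D2:**
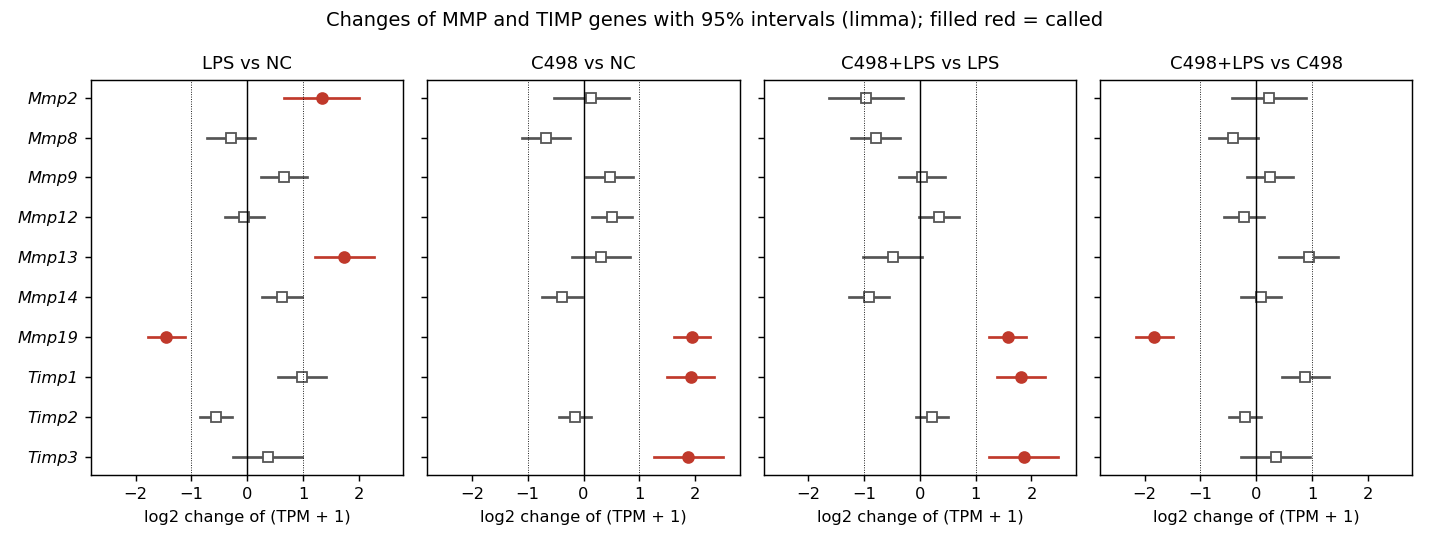
Log2 change of (TPM + 1) of each member (horizontal axis) with its 95% interval from limma in each comparison, with dotted lines at a 2-fold change and filled red points for called genes. Mmp19 is filled in LPS vs NC, C498 vs NC, C498+LPS vs LPS and C498+LPS vs C498, and Timp1 and Timp3 are filled on the higher side of both C498 comparisons.

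Among the collagenases, which cut fibrillar collagen, Mmp13 responded most to LPS. Its level was 4.7 and 2.98 TPM in the NC samples and 15.72 and 14.12 in the LPS samples, 5.66 and 4.26 in C498, and 10.96 and 9.76 in C498+LPS. Both LPS samples lay above all others and both C498+LPS samples lay between them and the samples without LPS. Mean TPM was 3.89-fold higher in LPS than in NC, and the log2 change was 1.74 (SE 0.223, adjusted p = 0.00166), a call that held under all 16 alternatives. Between C498+LPS and C498 the log2 change was 0.94 (adjusted p = 0.0318), just under the 2-fold threshold, and it was 1.15 and called when centred on the median gene. Leaving out each sample in turn gave 0.77 to 1.11, with adjusted p from 0.0159 to 0.191. Between C498+LPS and LPS the change was -0.49 (95% interval -1.01 to 0.04, adjusted p = 0.19). Mmp8, the neutrophil collagenase, was lower in the samples with C498. It measured 125.43 and 92.8 TPM in NC, 89.97 and 85.72 in LPS, 70.39 and 64.13 in C498, and 58.66 and 43.15 in C498+LPS. Each of the 4 samples with C498 lay below the 4 without it. The log2 change was -0.68 in C498 vs NC (adjusted p = 0.0501) and -0.79 in C498+LPS vs LPS (adjusted p = 0.028), both short of 2-fold. The first was -0.89 to -0.46 over the fits without 1 sample, with adjusted p from 0.0421 to 0.223. Without C498+LPS replicate 1 the second change was -1.01 (adjusted p = 0.0323) and was called, and without C498+LPS replicate 2 it was -0.57 (adjusted p = 0.163).

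The markers of neutrophils, the other usual source of Mmp8, moved with it in part. The summed TPM of the 11 neutrophil markers was between 118.9 and 170.0 in NC and LPS and between 71.54 and 98.65 in the samples with C498. Most of this sum was S100a8, at 48.93 to 128.31 TPM, while the neutrophil markers Ngp and Elane were at 0 in every sample and S100a9 did not exceed 0.86. Retnlg, a marker of neutrophils, was at 3.93 to 6.03 TPM without C498 and at 0.42 to 1.19 with it, and was called lower in C498 vs NC (log2 change -1.64, adjusted p = 0.00975) and under LPS (-1.78, adjusted p = 0.00607). It passed the filter on low values through the samples without C498. Csf3r, the receptor for granulocyte colony-stimulating factor, which monocytes also carry, fell in C498+LPS vs LPS by 1.26 on the log2 scale (adjusted p = 0.00191). The part of neutrophils in the Mmp8 values was not tested, and in bulk RNA fewer cells of a type and less RNA per cell cannot be told apart.

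Of the gelatinases, which digest denatured collagen and basement membrane, Mmp2 was low and Mmp9 moderate. Mmp2 measured 4.27 and 3.55 TPM in NC, 12.66 and 10.15 in LPS, 3.1 and 6.11 in C498, and 4.8 and 5.93 in C498+LPS. The LPS samples stood above all others, and the other 6 samples overlapped. Its LPS change was 1.33 on the log2 scale (SE 0.284, adjusted p = 0.0125), or 2.92-fold in mean TPM. That call was lost without NC replicate 2 (adjusted p = 0.0513), without LPS replicate 1 (0.0925) or without LPS replicate 2 (0.0523). In C498+LPS vs LPS, Mmp2 had a log2 change of -0.96 (adjusted p = 0.0607), which became -1.04 and was called when centred on the median gene. Leaving out each sample in turn gave -1.11 to -0.81, with adjusted p from 0.045 to 0.274. Mmp9 measured 19.46 and 15.53 TPM in NC, 32.5 and 24.18 in LPS, 24.22 and 24.58 in C498, and 27.37 and 30.7 in C498+LPS. All 6 treated samples lay above both NC samples, and the C498 and C498+LPS samples lay within the range of the LPS samples. The log2 change with LPS was 0.66 (adjusted p = 0.0283), under 2-fold, and 0.45 to 0.87 over the fits without 1 sample, with adjusted p from 0.0271 to 0.165. Between C498+LPS and LPS it was 0.05 (95% interval -0.37 to 0.46).

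Mmp12, the macrophage elastase, made up most of the MMP transcripts. It measured 1185.49 and 863.56 TPM in NC, 986.73 and 968.67 in LPS, 1490.17 and 1400.8 in C498, and 1342.4 and 1153.19 in C498+LPS. Both C498 samples were above every other sample, but the NC samples lay far apart, with NC replicate 1 higher than both LPS samples and C498+LPS replicate 2. The C498 vs NC change was 0.51 on the log2 scale (95% interval 0.16 to 0.87, adjusted p = 0.0621), with 0.29 to 0.74 and adjusted p from 0.0113 to 0.276 over the fits without 1 sample, and LPS vs NC gave -0.05 (95% interval -0.41 to 0.31). The share of Mmp12 in the summed TPM of the 7 MMPs was 64.6% and 63.9% in NC, 55.0% and 57.2% in LPS, 73.4% and 72.7% in C498, and 73.0% and 73.4% in C498+LPS. The opposite-strand gene Mmp1b shares 157 exonic bases with Mmp12 and was listed at 0.

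Mmp14, the membrane-anchored collagenase that also activates the precursor of MMP2, was second in level. It measured 459.85 and 345.21 TPM in NC, 645.89 and 579.9 in LPS, 306.55 and 305.14 in C498, and 357.19 and 294.66 in C498+LPS. The LPS samples were the highest, and the C498+LPS samples overlapped those with C498 alone. The log2 change was 0.62 in LPS vs NC (adjusted p = 0.0219) and -0.91 in C498+LPS vs LPS (SE 0.154, adjusted p = 0.00881), a 1.88-fold lower mean that missed the 2-fold threshold. Without C498+LPS replicate 1 it was -1.05 (adjusted p = 0.0243) and was called, and without C498+LPS replicate 2 it was -0.78 (adjusted p = 0.076). The LPS vs NC change was 0.41 to 0.82 over the fits without 1 sample, with adjusted p from 0.00963 to 0.133. Mmp14 held 36.0% and 34.2% of the MMP sum in LPS and 19.4% and 18.8% in C498+LPS, with 25.1% and 25.5% in NC.

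Mmp19, a secreted enzyme that cleaves basement membrane proteins, was called in 4 of the 5 comparisons. It measured 36.0 and 28.35 TPM in NC, 10.97 and 11.19 in LPS, 130.2 and 122.23 in C498, and 36.99 and 32.91 in C498+LPS. The C498+LPS samples overlapped the NC range, the LPS samples lay below it and the C498 samples above it. With LPS it fell by 1.45 on the log2 scale vs NC (SE 0.139, adjusted p = 0.000462), and between C498+LPS and C498 it fell by 1.82 (adjusted p = 0.000374). C498 raised it by 1.95 vs NC (adjusted p = 0.000314) and by 1.57 in C498+LPS vs LPS (adjusted p = 0.000985). All 4 of these calls held under all 16 alternatives. Mmp19 shares 789 exonic bases with the opposite-strand gene Tmem198b, whose level was between 4.72 and 10.37 TPM and highest in NC, and 212 with the predicted gene Gm47093. Whether the counting used strand is not given in the sources used here, so reads from the shared bases cannot be told apart.

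Timp1, the inducible inhibitor, was lowest in NC and highest in C498+LPS. It measured 67.95 and 85.7 TPM in NC, 145.77 and 158.28 in LPS, 281.42 and 301.29 in C498, and 448.87 and 641.66 in C498+LPS. No group overlapped another. C498 raised it by 1.92 on the log2 scale vs NC (SE 0.181, adjusted p = 0.00103) and by 1.81 in C498+LPS vs LPS (adjusted p = 0.00139), calls that held under all 16 alternatives. The LPS change was 0.98 vs NC (adjusted p = 0.00711), just short of 2-fold, and 0.88 between C498+LPS and C498 (adjusted p = 0.0199). Centred on the median gene these were 1.15 and 1.09 and both were called. Leaving out each sample in turn, the first was 0.82 to 1.15 (adjusted p from 0.00618 to 0.0573). The second was 1.14 and called without C498+LPS replicate 1 and 0.62 (adjusted p = 0.0906) without C498+LPS replicate 2, with adjusted p up to 0.131 over all such fits. The host gene Syn1 on the other strand shares no exonic bases with Timp1 and was at 0.97 to 2.49 TPM.

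Timp3, the inhibitor that binds to the extracellular matrix, was the least abundant TIMP in every sample. It measured 8.27 and 4.48 TPM in NC, 8.14 and 8.31 in LPS, 24.95 and 25.57 in C498, and 27.42 and 38.39 in C498+LPS. All samples with C498 lay at least 24.95 TPM high and all without it at most 8.31. The log2 change was 1.88 in C498 vs NC (SE 0.263, adjusted p = 0.00532) and 1.86 in C498+LPS vs LPS (adjusted p = 0.00442). The first call was lost without C498 replicate 1 (adjusted p = 0.0593), without C498 replicate 2 (0.0573) and in a fit of only the groups compared (0.0567), and the second without C498+LPS replicate 2 (1.62 on the log2 scale, adjusted p = 0.0512). With LPS the change was 0.37 (95% interval -0.25 to 0.99). Timp3 shares 1733 exonic bases with Syn3 on the other strand, which did not exceed 0.28 TPM.

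Timp2, which takes part in the activation of MMP2 by MMP14, kept a narrower range. It measured 144.4 and 177.9 TPM in NC, 109.58 and 106.51 in LPS, 136.01 and 153.53 in C498, and 122.26 and 130.46 in C498+LPS. The LPS samples were the lowest, and NC and C498 overlapped. The log2 change was -0.56 in LPS vs NC (SE 0.122, adjusted p = 0.0131), under 2-fold, with adjusted p from 0.00658 to 0.0777 over the fits without 1 sample. It was 0.22 in C498+LPS vs LPS (95% interval -0.06 to 0.51). It overlaps Cep295nl on the same strand, with no exonic bases shared.

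The inhibitor pool therefore differed in its makeup between groups. Timp2 held 65.5% and 66.4% of the summed TIMP level in NC, 41.6% and 39.0% in LPS, 30.7% and 32.0% in C498, and 20.4% and 16.1% in C498+LPS. Timp1 held 30.8% and 32.0% in NC, 55.3% and 58.0% in LPS, 63.6% and 62.7% in C498, and 75.0% and 79.2% in C498+LPS. Timp1 was thus the larger part in all 6 treated samples and Timp2 in both NC samples. Per 100 of summed MMP level, the summed TIMP level was 12 and 19.8 in NC, 14.7 and 16.1 in LPS, 21.8 and 24.9 in C498, and 32.6 and 51.6 in C498+LPS. LPS lay within the range of NC, and every sample with C498 was above every sample without it. The highest value, 51.6, was that of C498+LPS replicate 2, which also had the highest sums of fibroblast and mesothelial markers. Leaving Mmp12 out, the values were 34.0 and 54.9, 32.6 and 37.7, 81.9 and 91.3, and 121 and 194 in the same order. These sums over chosen genes are given as a description and were not tested, and an exact two-sided permutation test of 2 samples against 2 cannot give a p below 0.333.

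**Figure D3:**
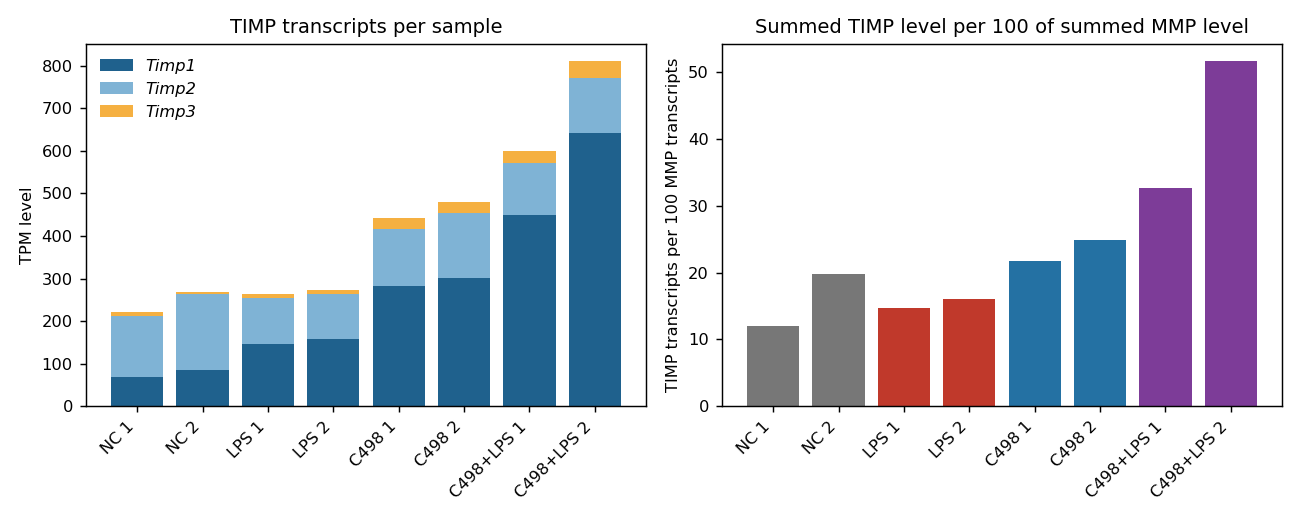
Left, TPM level of Timp1, Timp2 and Timp3 stacked for each of the 8 samples. Right, summed TIMP level per 100 of summed MMP level in each sample, from 12 in NC to 51.6 in C498+LPS.

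Whether C498 altered the LPS response was asked through the interaction of the treatments, the log2 LPS change with C498 minus that with vehicle. No member passed in limma, where 0.0738% of all tested genes were called higher and 0.394% lower, and 3 members were below an unadjusted p of 0.05, as were 11.1% of all tested genes. These were Mmp2 at -1.10 (95% interval -2.05 to -0.16, adjusted p = 0.386), Mmp13 at -0.80 (-1.54 to -0.06, adjusted p = 0.415) and Mmp14 at -0.53 (-1.04 to -0.02, adjusted p = 0.435). Each of these values is negative, that is, a smaller log2 LPS change with C498 than with vehicle, and none passed the adjusted threshold. Leaving out each sample in turn, the interaction ranged from -1.5 to -0.70 for Mmp2, from -1.06 to -0.54 for Mmp13, from -0.74 to -0.33 for Mmp14 and from -0.54 to -0.21 for Mmp19. For Mmp19 the interaction was -0.38 (95% interval -0.84 to 0.08), for Timp1 -0.10 (-0.71 to 0.50) and for Timp3 -0.02 (-0.90 to 0.85).

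**Figure D4:**
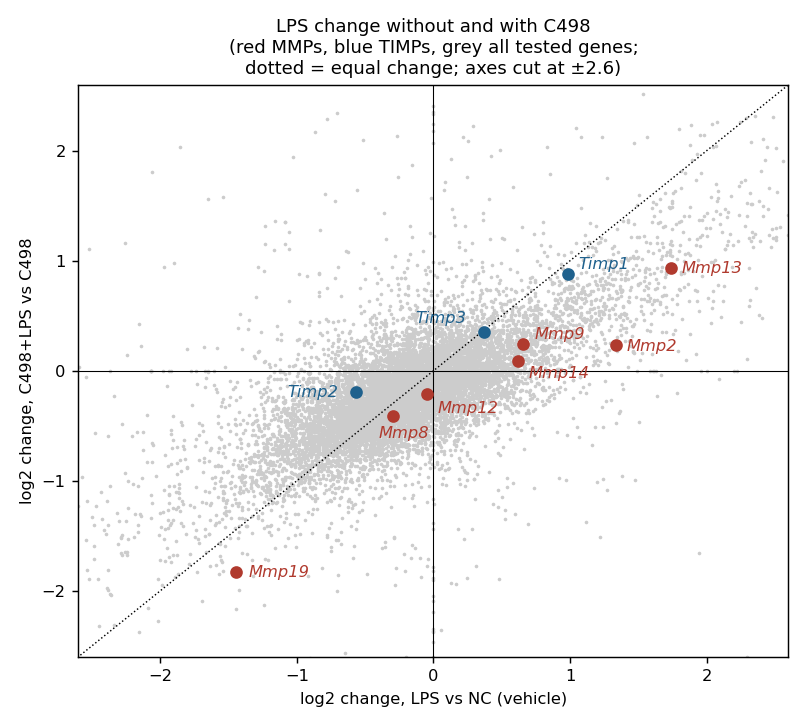
Log2 change with LPS in the vehicle groups (horizontal axis) and in the C498 groups (vertical axis) for the 10 members, red for MMPs and blue for TIMPs, over all tested genes in grey, with a dotted line of equal change and axes ending at ±2.6. Mmp2, Mmp13 and Mmp14 lie below the dotted line, with interactions of -1.10, -0.80 and -0.53, and Mmp19 lies low on both axes at -1.45 and -1.82.

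Of 17 further MMP and TIMP genes, 4 passed the filter. Mmp23 rose in C498 vs NC by 1.32 on the log2 scale (adjusted p = 0.0245) and in C498+LPS vs LPS by 1.95 (adjusted p = 0.00517), with 1.29 to 2.45 TPM in the samples without C498 and 5.28 to 10.73 in those with it. The first call was lost without NC replicate 1 or either C498 sample (adjusted p of up to 0.147) and the second without LPS replicate 2 or C498+LPS replicate 2. No other gene of this list was called. Mmp1a, Mmp1b and Mmp20 were listed at 0.

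The ADAM and ADAMTS genes encode related metalloproteinases that shed membrane proteins or cut proteoglycans, and 12 of 14 were tested. In LPS vs NC, 1 rose and 2 fell, namely the aggrecanase Adamts4 (log2 change 1.42, adjusted p = 0.0075) and the sheddase Adam8 (-1.21, adjusted p = 0.000324) together with Adamts10. Of all tested genes, 5.55% rose and 6.68% fell in that comparison. Adamts4 was at 0.2 to 0.41 TPM without LPS and 1.86 to 3.07 with it, so it passed the filter only through the samples with LPS. In both C498 comparisons 4 of the list rose and none fell, and these were Adamts1, Adamts2, Adamts9 and Adam12. Of all tested genes, 5.64% rose in C498 vs NC and 5.39% in C498+LPS vs LPS. Adamts1 was at 0.35 to 0.76 TPM without C498 and 2.84 to 3.73 with it, and Adamts2 at 0.69 to 1.2 and 2.78 to 4.97. Both passed the filter through the samples with C498, so their calls and the count of 4 are not independent of the filter. Adamts9 went from 0.96 to 3.93 TPM in the samples without C498 to 11.06 to 16.73 in those with it. Between C498+LPS and C498, Adamts4 rose by 1.35 (adjusted p = 0.0172) and Adam8 fell by 1.21 (adjusted p = 0.000772). Adam8 and the LPS vs NC call of Adamts4 did not depend on any single sample, but the Adam8 call between C498+LPS and C498 was lost when centred on the median gene. The C498 vs NC calls of Adamts1, Adamts2 and Adam12 were lost without either C498 sample and that of Adamts9 without C498 replicate 2. The C498+LPS vs LPS calls of all 4 were lost without LPS replicate 2 or C498+LPS replicate 2. Those of Adamts2 and Adam12 were also lost without LPS replicate 1, and the C498 vs NC call of Adamts2 without NC replicate 2. Adamts10 lost its call without LPS replicate 2 or with quantile normalization, and Adamts4 its call in C498+LPS vs C498 without either C498 sample or C498+LPS replicate 1.

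The plasminogen system can activate MMP precursors, and 6 of its 8 listed genes were tested. LPS raised 3 over NC, among them the inhibitor Serpinb2 and the urokinase receptor Plaur, where 5.55% of all tested genes rose. C498 raised 3 of the list over NC, among them Serpinb2 and the tissue plasminogen activator Plat. Under LPS it raised 3, among them Plat and the protease inhibitor Serpine2. Of all tested genes, 5.64% rose in C498 vs NC and 5.39% in C498+LPS vs LPS. Serpine2 was at 0.32 to 0.49 TPM without C498 and 1.2 to 2.65 with it. It passed the filter only through the samples with C498, so its call is not independent of the filter. Serpinb2, also called PAI-2, measured 61.91 and 52.96 TPM in NC, 319.57 and 326.18 in LPS, 260.69 and 260.62 in C498, and 509.75 and 637.42 in C498+LPS. It was the one gene of the lists other than the cell type markers with a called interaction, -1.35 (limma, adjusted p = 0.0344), which was called under 6 of 15 alternatives. The calls of Serpinb2 in LPS vs NC and C498 vs NC held under all 16 alternatives. Between C498+LPS and C498, Serpinb2 rose by 1.13 (adjusted p = 0.00198), a call lost without C498+LPS replicate 2. Its interaction call was lost without NC replicate 2, either LPS sample, either C498 sample or C498+LPS replicate 1, and also when centred, without the filter on low values or without the variance trend. Plaur lost its call without NC replicate 1, without LPS replicate 1 or with quantile normalization, Plat in C498 vs NC without either C498 sample, and Serpine2 without either LPS sample or C498+LPS replicate 2.

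Of 12 genes that bind, clear or carry MMPs or serve as their substrates, 10 were tested. LPS raised Thbs1 and Cd44 over NC, and C498 raised 4 over NC, the matricellular genes Thbs1 and Sparc and the matrix genes Fn1 and Eln. Of all tested genes, 5.55% rose in LPS vs NC, 5.64% in C498 vs NC and 5.39% in C498+LPS vs LPS. Under LPS, C498 raised Sparc, Fn1 and Eln and lowered Lcn2, which encodes the lipocalin that binds MMP9 (-1.29, adjusted p = 0.000619). Lcn2 measured 631.71 and 578.32 TPM in LPS and 254.24 and 238.39 in C498+LPS. The calls of Sparc and Lcn2 held under all 16 alternatives. Cd44 and Thbs1 lost their LPS calls without NC replicate 2 or LPS replicate 1, and Thbs1 also without LPS replicate 2. Thbs1 lost its C498 vs NC call without either C498 sample, and Fn1 without C498 replicate 2. In C498+LPS vs LPS, Fn1 lost its call without LPS replicate 2 or C498+LPS replicate 2. Eln was at 0.36 to 0.55 TPM without C498 and 1.6 to 3.02 with it. It passed the filter only through the samples with C498, so its calls are not independent of the filter. Eln lost both calls when centred or with quantile normalization. It also lost its C498 vs NC call without any one of the NC, LPS or C498 samples and its C498+LPS vs LPS call without either LPS sample or C498+LPS replicate 2. Among 6 cysteine cathepsins and cystatins, all tested, limma called none in any comparison, and at an unadjusted p under 0.05 there were 3 for LPS against NC, 1 for C498+LPS against LPS and 4 for C498+LPS against C498, with none in the other comparisons. Of all tested genes, 41.2%, 31.2% and 31.9% were under that p in these 3 comparisons.

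Markers of other cell types moved along with the C498 comparisons. The 10 macrophage markers were detected in every sample, with a summed level of 18190 to 20910 TPM without C498 and 12550 to 16270 with it. The 9 fibroblast markers summed to 151.0 to 210.2 TPM without C498 and 620.5 to 912.7 with it, and the 7 mesothelial markers to 5.03 to 6.52 and 17.44 to 29.37. Of the 6 fibroblast markers tested, 5 rose in C498 vs NC, among them Col1a1 (log2 change 2.04, adjusted p = 0.0027) and Dcn (1.99, adjusted p = 0.000824), where 5.64% of all tested genes rose. In C498+LPS vs LPS, 4 rose and 1 fell, as did 5.39% and 2.18% of all tested genes. The marker that fell was Pdgfrb (limma, log2 change -1.81, adjusted p = 0.00226). It was at 9.63 and 8.03 TPM in LPS and at 0.47 to 1.97 in the other groups. The fibroblast markers Lum, Dpt and Pi16 did not exceed 0.31 TPM in any sample and were not tested. C498+LPS replicate 2 had the highest fibroblast, mesothelial, mast, B and T or NK cell sums of all samples, with a B cell sum of 13.78 TPM against 3.65 to 7.52 elsewhere. The mast cell sum ranged from 8.81 to 22.89 TPM over all samples, the T and NK cell sum from 1.22 to 5.55, the endothelial sum from 19.69 to 32.61 and the eosinophil sum from 0.67 to 2.21, with Epx at 0. It also had the highest Timp1 and Timp3. Without it, the C498+LPS vs LPS change was 1.56 for Timp1 (adjusted p = 0.0114) and 1.65 for Mmp19 (adjusted p = 0.0114), both still called, while Timp3 lost its call (1.62, adjusted p = 0.0512). The means compared in C498 vs NC do not include that sample, though the estimate of the spread does. Without it the C498 vs NC changes were still called, with adjusted p of 0.00225 for Mmp19, 0.00218 for Timp1 and 0.015 for Timp3, and in the fit of only the NC and C498 samples Timp3 lost its call (0.0567). The part of fibroblasts in the changes of Timp1, Timp3, Mmp23 and the matrix genes was not tested.

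**Figure D5:**
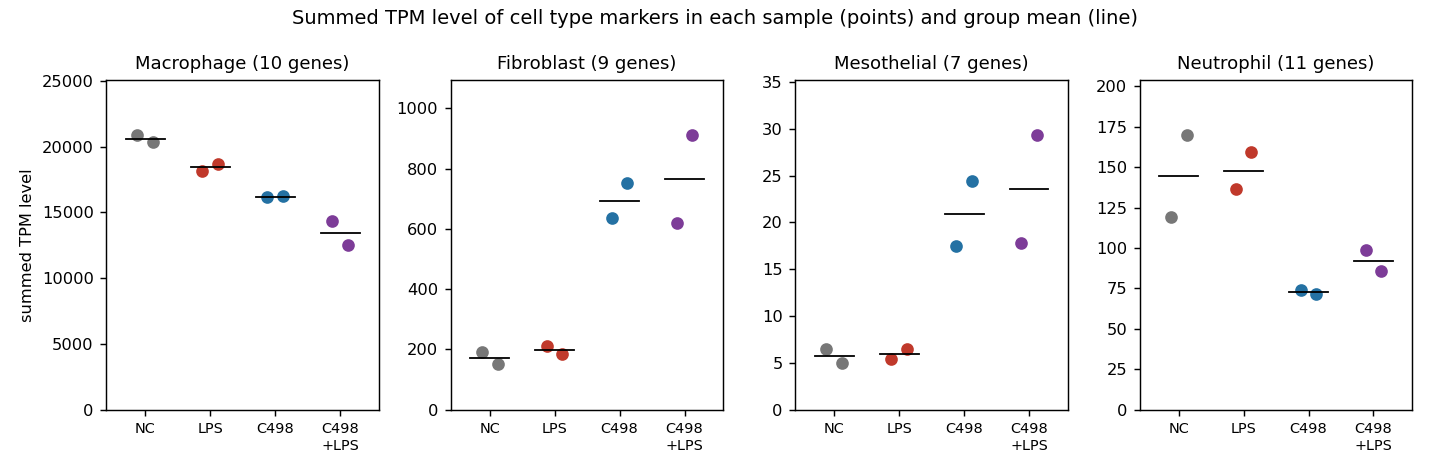
Summed TPM level of cell type markers (vertical axis, linear, from 0) in the 4 groups, with a point per sample and a line at the group mean. The fibroblast sum lies between 151.0 and 210.2 without C498 and between 620.5 and 912.7 with it, and the macrophage sum is lower with C498.

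For each member called in any comparison, the 2 tested genes with the highest Pearson r of log2(TPM + 1) over the 8 samples were taken. They were Jun (0.997) and H2bc4 (0.993) for Mmp19, Mtdh and Rnf11 for Mmp13 (both 0.995), Ifng (0.996) and Ccn1 (0.995) for Timp1, Col4a2 and Efnb2 for Timp3 (both 0.997), and Gm12216 (0.976) and Pwp2 (0.949) for Mmp2. Jun encodes a subunit of AP-1 and measured 94.73 and 77.74 TPM in NC, 27.61 and 26.17 in LPS, 320.35 and 274.88 in C498, and 85.72 and 86.61 in C498+LPS. Like Mmp19, it was highest in C498 and lowest in LPS. The 8 points share 4 treatments, so these values describe a likeness over group means.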

How the data were processed

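RNA was measured by paired-end sequencing (Illumina NovaSeq, TruSeq library) in 8 samples. Per the labels and methods, the authors processed reads with fastp, HISAT2, StringTie and RSEM. The genome build, annotation, tool versions and strand setting are not given in the sources used here. The table the authors deposited gives TPM for each gene in each sample, besides group means, gene length and annotation columns. The group means and annotation were not used. TPM keeps no read depth, so depth is unknown and precision comes only from the replicates. NC columns were matched to the samples titled CTRL. Genes above 0 ranged from 17528 to 18975 per sample, and replicates correlated at 0.962 to 0.981.

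Values were taken as log2(TPM + 1), since the unit is not a count, and the 12189 genes whose mean TPM reached 1 entered the test in R 4.3.3 with limma 3.58.1, with a variance trend and 1 mean per group over all 8 samples. The comparisons were LPS vs NC, C498 vs NC, C498+LPS vs LPS, C498+LPS vs C498 and the interaction. These share samples with each other. Fold changes on this scale understate changes of low genes. The thresholds, 2-fold and an adjusted p of 0.05, are those of the study. On simulated LPS vs NC data of 12189 genes, 159 of 200 changed genes (79.5%) were recovered with 7 false calls. Gene identifiers of 11874 tested genes (97.4%) were in GENCODE M21. Python steps used numpy 2.4.6, scipy 1.17.1, pandas 2.3.3 and matplotlib 3.10.9.

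Members, gene lists and tests were chosen with earlier results of these data known. All members are named, and 1 gene of another list is not reported here. From the other lists, at most 3 called genes per comparison with the largest change could be named, together with genes overlapping a member and the 2 most like each called member. Cell type markers were named after their values were seen, as was the full sets of called genes among the ADAM and ADAMTS list and the MMP regulators. Alternatives were another pseudocount (0.1), no filter or a mean TPM of at least 5, centring, quantile normalization, other fits, a replicate block, no fold threshold and leaving out each sample.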

Additional observations from a re-analysis of the deposited data

Results flagged for a closer look

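Serpinb2, the plasminogen activator inhibitor PAI-2, had a smaller LPS change with C498 than with vehicle by the test of that difference, an interaction of -1.35 on the log2 scale (limma, adjusted p = 0.0344). Its log2 LPS change was 2.48 vs NC and 1.13 between C498+LPS and C498. C498 alone raised it over NC by 2.17 on that scale, and its TPM was highest in C498+LPS, so the difference is one of ratios. The interaction was called under 6 of 15 alternatives. Over the 15 alternatives in which it could be fitted, the interaction ranged from -1.51 to -1.19 and its adjusted p from 0.0238 to 0.204.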

How the results depend on the processing

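Of the 790 changes of single members recomputed under the alternatives, 750 kept direction and call, 7 lost a call, 12 gained one and 21 changed sign, all of the last in changes that were not called. Most of the 790 were not called in the main fit, so keeping the call mostly meant staying uncalled. The 7 losses were all of Mmp2 in LPS vs NC and of Timp3 in C498 vs NC and C498+LPS vs LPS. Of 564 recomputed changes of other called genes, 86 lost the call and 0 changed sign. Without the fold threshold the members called were 7 in LPS vs NC, 5 for C498+LPS against LPS and 3 for C498+LPS against C498, where 29.6%, 16.8% and 16.2% of all tested genes passed. With the threshold kept, the 1 member called for C498+LPS against C498 became 2 with a pseudocount of 0.1 TPM, 3 when centred and 2 with quantile normalization. Leaving out 1 sample, where the remaining sample of the group is assumed to vary like the other groups, gave 2 to 5 members with the threshold for C498+LPS against LPS, in place of 3, and 1 to 2 against C498, in place of 1. Changes of sign when centred were Mmp12 in LPS vs NC (0.12), Mmp9 in C498+LPS vs LPS (-0.03), Timp2 in C498+LPS vs C498 (0.022) and the Timp3 interaction (0.023). With quantile normalization they were Mmp14 in C498+LPS vs C498 (-0.0062) and the Mmp8 interaction (0.004). Leaving out 1 sample, the LPS vs NC change ranged from -0.28 to 0.18 for Mmp12 and from -0.0071 to 0.75 for Timp3, and the C498 vs NC change from -0.26 to 0.54 for Mmp2 and from -0.30 to 0.0011 for Timp2. It ranged from -0.16 to 0.25 for Mmp9 in C498+LPS vs LPS, from -0.17 to 0.63 for Mmp2 and from -0.054 to 0.22 for Mmp14, both of these in C498+LPS vs C498. The interaction ranged from -0.33 to 0.10 for Mmp8, from -0.39 to 0.062 for Mmp12, from -0.36 to 0.15 for Timp1 and from -0.40 to 0.36 for Timp3. The cause of these changes was not tested.

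Same-numbered samples deviated together with correlations of 0.0397 to 0.168 between groups, not all above 0.1, so the numbers were not taken to pair the samples. With the replicate block 3 members were called in LPS vs NC, 3 in C498 vs NC, 3 for C498+LPS against LPS, 1 against C498 and 0 for the interaction, as without it, and no call of a member changed, while the calls over all genes went from 1491 to 1537 in LPS vs NC and from 57 to 84 for the interaction. Calls over all genes moved by over 1.5 times in C498 vs NC, from 853 to 566 at a mean TPM of at least 5, to 379 in a fit of only the groups compared, and to between 345 and 1381 without 1 sample. For C498+LPS against LPS they moved from 923 to 594 at that mean TPM and to as few as 470 without 1 sample, against C498 from 688 to as few as 366 without 1 sample, and for the interaction from 57 to 18 without the filter, 12 without the variance trend and between 9 and 92 without 1 sample. Depth is unknown from TPM, so the counting noise behind low genes such as Mmp2 was not measured.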
